A study of Mus musculus with 21 samples.

Results

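Metabotropic glutamate receptors are the G protein-coupled receptors for glutamate, and 6 of their genes, Grm2, Grm3, Grm4, Grm5, Grm7 and Grm8, are described here. They were taken by gene name from the 16318 genes of the deposited brain RNA-seq table. All 6 were found, and all 6 passed the filter on low counts. Other genes of the family were not analysed here. The mice were all SAMP8, an inbred strain in which memory deficits and cognitive decline appear early without a transgene, and no mouse of a control strain was among the labeled libraries used here. One group of 12 mice (6 female, 6 male) received phosphate-buffered saline (PBS), and the other of 9 mice (3 female, 6 male) received HsTX1[R14A] at 1 mg/kg, a peptide that blocks the voltage-gated potassium channel Kv1.3. Both were dosed under the skin every other day for 8 weeks, from 4 months of age to 6 months of age. RNA came from the brain (the whole brain by the study's methods), with 1 library per mouse, and the comparison asks whether the brain transcriptome differed with the peptide.

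Ionotropic glutamate receptors carry fast excitatory current, whereas metabotropic receptors adjust its strength through G proteins. Group I, to which Grm5 belongs, couples to Gq and phospholipase C, sits mainly at the edge of the postsynaptic density, and drives calcium release and local protein synthesis. Group II (Grm2 and Grm3) and group III (Grm4, Grm7 and Grm8) couple to Gi/o proteins, lower cyclic AMP, and mostly restrain transmitter release from the presynaptic terminal. Grm3 is also made by astrocytes, Grm4 is abundant in cerebellar granule cells, and Grm7 encodes a low-affinity receptor of the presynaptic active zone.

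Library totals ran from 14917171 to 36207536 counts in the PBS mice and from 17552394 to 47613770 in the HsTX1[R14A] mice, and the least counted receptor value, Grm2 in PBS female mouse 103, rested on 52 counts. A few features of the libraries bear on every result below. First, cerebellar granule cell markers were scarce for a brain sample. Gabra6, a GABA-A receptor subunit of these cells, was under 1 CPM (counts scaled to the library total after TMM) in 16 of the 21 mice, with a median of 0.228 CPM, but reached 90.1 CPM in HsTX1[R14A] male mouse 74 and 15 CPM in PBS female mouse 73. Cbln3 and Fat2, which also mark these cells, were under 1 CPM in 12 and 16 of the mice and peaked in mouse 74 at 128 CPM and 51.2 CPM. Second, the libraries differed in how counts depended on transcript length. The slope of a library's log2 CPM, centered gene by gene, on log2 transcript length averaged -0.0764 ± 0.161 (SD, n = 12) with PBS but 0.102 ± 0.119 (SD, n = 9) with HsTX1[R14A], and the sex-adjusted difference was 0.194 (exact permutation test within sex, two-sided, p = 0.00504). A higher slope means relatively more counts on long transcripts, and the lowest slopes were in PBS mice 103 (-0.384) and 90 (-0.337). Finally, library names began either with SAMP8 (the SAMP8 form, 10 PBS and 5 HsTX1[R14A] mice) or with SAMP alone (the SAMP form, 2 PBS and 4 HsTX1[R14A] mice), whose meaning is not given in the sources used here.

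The 6 genes lie apart in the mouse genome (GRCm38). Grm2 spans chr9:106643095-106656082 on the minus strand, Grm3 chr5:9485541-9725170 (minus), Grm4 chr17:27422387-27521403 (minus), Grm5 chr7:87584168-88134907 (plus), Grm7 chr6:110645581-111567230 (plus) and Grm8 chr6:27275119-28135178 (minus). Grm2 is compact at 13 kb, whereas Grm7 stretches over 921.6 kb and Grm8 over 860.1 kb. In GENCODE, exons of Grm2 share 470 bases with the antisense gene Gm28111, exons of Grm7 share 130 bases with the antisense gene Gm20387, and exons of Grm8 hold the 96 bases of the miRNA gene Mir592. Whether strand was used in counting is not stated, so reads from the antisense stretches cannot be assigned to one partner with certainty. Mir592 lies on the same strand as Grm8, so strand would not separate the reads there.

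The promoters of the group II pair are shown because these receptors share a G protein pathway, while below Grm2 was called for treatment and Grm3 was not. Whether their treatment differences were unlike was not tested. With the length slope as a covariate the log2 fold changes were -0.14 ± 0.20 (SE) for Grm2 and -0.16 ± 0.12 for Grm3. No link between these sequences and the levels was tested. Each sequence is the RefSeq (GRCm38.p6) window from 250 bases before to 50 bases after the start site, on the gene's strand, with the letters GGGCGG, the GC box, in capitals (both strands were searched). The Grm2 window is chr9:106656060-106656359 on the minus strand, and the Grm3 window is chr5:9725303-9725602 on the minus strand.
Grm2: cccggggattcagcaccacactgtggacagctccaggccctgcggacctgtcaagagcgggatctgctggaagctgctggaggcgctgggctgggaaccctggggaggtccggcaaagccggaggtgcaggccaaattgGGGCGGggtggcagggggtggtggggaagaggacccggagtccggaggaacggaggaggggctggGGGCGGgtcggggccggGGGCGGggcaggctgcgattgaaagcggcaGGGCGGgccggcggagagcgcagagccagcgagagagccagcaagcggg
Grm3: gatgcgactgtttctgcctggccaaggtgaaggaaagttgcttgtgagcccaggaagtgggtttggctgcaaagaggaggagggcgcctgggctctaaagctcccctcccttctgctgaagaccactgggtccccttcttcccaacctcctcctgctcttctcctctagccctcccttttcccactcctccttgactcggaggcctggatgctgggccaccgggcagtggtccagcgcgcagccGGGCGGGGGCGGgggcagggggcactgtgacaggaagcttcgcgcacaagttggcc

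The Grm2 window held 4 GC boxes, 72.0% G and C, and 22 CpG dinucleotides, and the Grm3 window held 2 GC boxes, 63.7% G and C, and 11 CpG dinucleotides. The windows of Grm7 and Grm8, at the RefSeq start nearest to the GENCODE gene start, each held 1 GC box, with 15 and 33 CpG dinucleotides. Across 32851 RefSeq promoters of the same length, 35.7% held a GC box, the median G and C content was 52.7% and the median CpG count was 7. The letters TGACGTCA (a cAMP response element, in 1.8% of all promoters) and CACGTG (an E-box, in 7.2%) were in none of the 4 windows. Grm4 and Grm5 had no entry.

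Of the 6 receptor genes, Grm5 was the most abundant per length. In the PBS mice it stood at 28.1 ± 2.06 CPM per kilobase of longest transcript (SD, n = 12), followed by Grm3 at 14.2 ± 2.15, Grm7 at 9.69 ± 1.20, Grm4 at 4.75 ± 2.6, Grm2 at 3.52 ± 1.69 and Grm8 at 2.70 ± 0.398. The top 3 steps of this order, down to Grm7 over Grm4, were kept in 12 of the 12 PBS mice. Grm4 was above Grm2 in 11 of 12, and Grm2 above Grm8 in 8 of 12, with a log2 ratio of 0.18 ± 0.80 (SD), so that the last pair did not differ beyond its spread. The log2 ratio of Grm4 to Grm2, 0.39 ± 0.55, was also smaller than its SD. In the HsTX1[R14A] mice the order of the means was the same, but Grm7 was above Grm4 in only 7 of 9 and Grm3 above Grm7 in 8 of 9. The choice of length mattered for 2 neighbor pairs: with the median length of the coding transcripts, Grm7 (23 CPM per kilobase) stood above Grm3 (14.2) and Grm2 (7.60) above Grm4 (6.40) in the PBS mice.

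**Figure D1:**
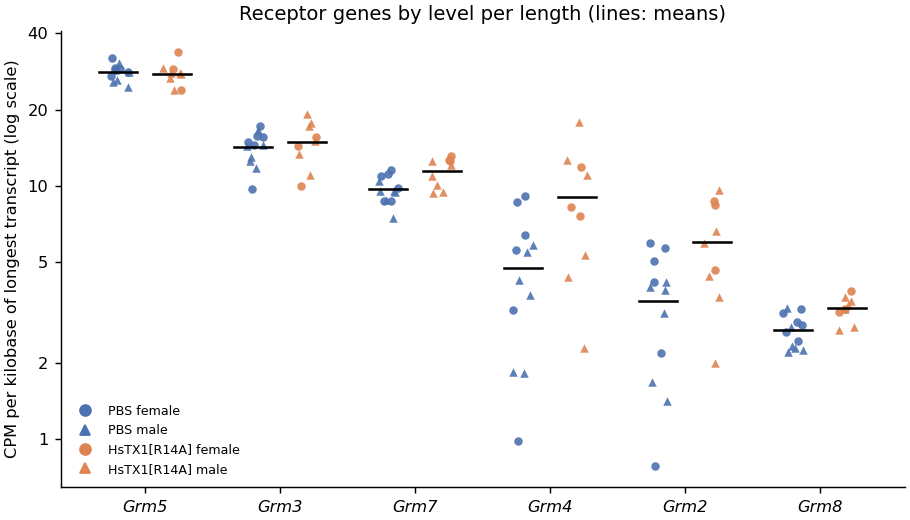
Level of each receptor gene per length in CPM per kilobase of the longest transcript (log axis), with 1 point per mouse (12 PBS, 9 HsTX1[R14A]; circles female, triangles male) and a line at each mean. Grm5 is highest throughout, and the points of Grm4 and Grm2 spread over a far wider range than those of Grm5, Grm7 or Grm8.

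The spread between mice set Grm2 and Grm4 apart. Their biological coefficients of variation, the spread left after sex and treatment in the edgeR fit, were 0.474 and 0.549, larger than in 98.6% and 99.3% of 13302 genes (those whose log2 CPM averaged 1 or more), whose median was 0.168. Grm3 (0.185) lay near that median. Grm8 (0.134), Grm7 (0.124) and Grm5 (0.112) lay below it, so that a small difference in these 3 genes stood on a tighter base.

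With HsTX1[R14A], 4 of the 6 receptor genes rose and none fell at an adjusted p of at most 0.05 (edgeR's quasi-likelihood test with sex in the model, Benjamini-Hochberg adjustment over 16303 genes). Over all genes tested 31.6% were called, 15.5% higher and 16.1% lower. The 4 were Grm2, Grm4, Grm7 and Grm8, and Grm3 and Grm5 did not pass. These calls depended on the model. With the length slope of the library as a covariate 0 of the 6 were called, and Grm2 and Grm4 changed sign but lay within 1 SE of 0. Within the SAMP8 form or the SAMP form alone 0 of the 6 were called. In each of these fits 0 genes of the whole table were called. With 1 surrogate variable 1 of the 6 was called, beside 2110 of all genes. The median log2 fold change of the 6 was 0.29, beside -0.013 over all genes tested. In bulk brain RNA, a change in the number of cells that make a receptor cannot be told apart from a change in the RNA made per cell. In all 6 genes the values of the groups overlapped.

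**Figure D2:**
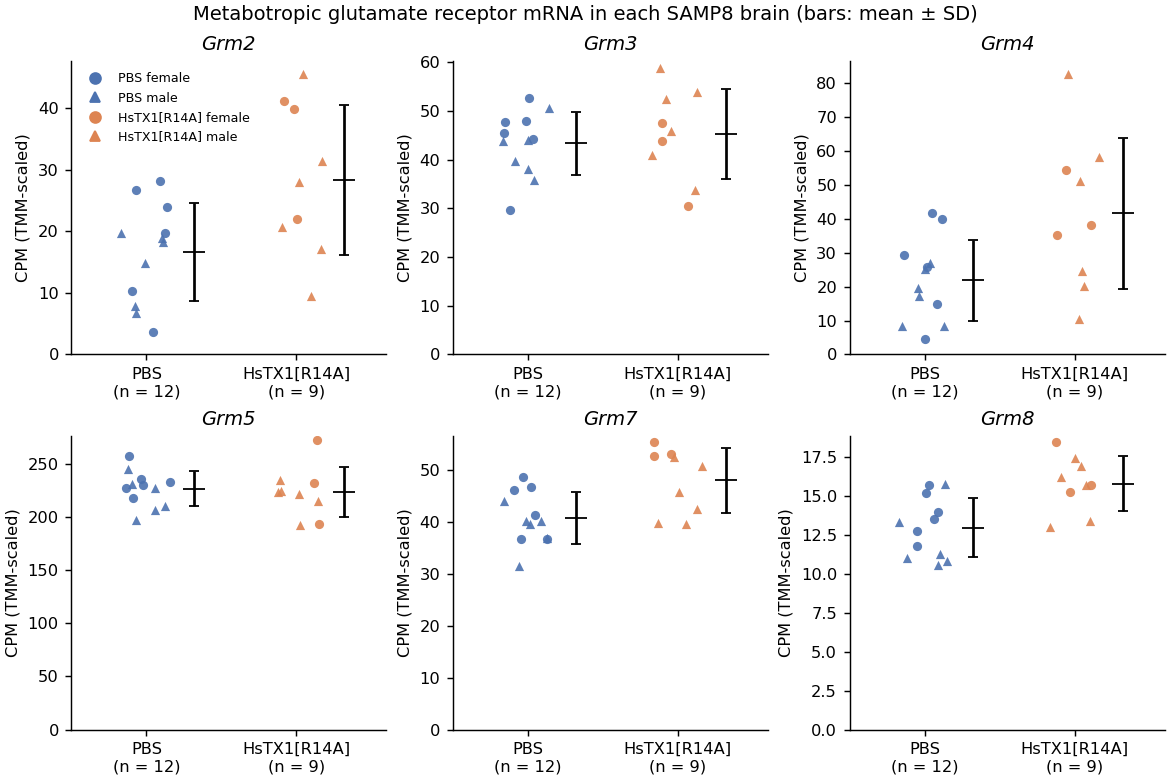
TMM-scaled CPM of each receptor gene in each mouse (circles female, triangles male), with the mean ± SD of the 12 PBS and the 9 HsTX1[R14A] mice beside the points. Grm2 and Grm4 are scattered widely in both groups, Grm7 and Grm8 are shifted upward with HsTX1[R14A] by less than the full range of either group, and Grm3 and Grm5 cover much the same range in both.

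Grm2, the group II presynaptic autoreceptor, had a lowest value of 3.69 CPM (mouse 103), a median of 18.6 and a highest value of 28.1 (mouse 84) in the PBS mice. In the HsTX1[R14A] mice it ran from 9.46 CPM (mouse 93) through a median of 28.1 to 45.5 (mouse 81). The 3 HsTX1[R14A] females were at 22, 39.8 and 41.1 CPM. Thus 7 of 9 lay above the PBS median and 4 above every PBS mouse, while 3 PBS mice lay below every HsTX1[R14A] mouse. The log2 fold change was 0.84 ± 0.30 (SE; edgeR adjusted p = 0.0414). Leaving out single mice ended this call 8 times. The adjusted p became 0.0603 without PBS mouse 73, 0.0766 without PBS mouse 90, 0.0659 without PBS mouse 91, 0.0804 without HsTX1[R14A] mouse 98, 0.0758 without mouse 71, 0.0616 without mouse 74, 0.0683 without mouse 88 and 0.0874 without mouse 81 (edgeR).

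Grm3, the group II receptor shared by neurons and astrocytes, ran from 29.6 CPM (mouse 103) through a median of 44.2 to 52.7 (mouse 104) in the PBS mice, and from 30.5 (mouse 71) through 45.9 to 58.8 (mouse 81) in the HsTX1[R14A] mice. Only 5 of these 9 exceeded the PBS median, and the log2 fold change was 0.054 ± 0.12 (SE; edgeR adjusted p = 0.735). Astrocyte markers were counted beside it. Of 8, none was called higher and 4, Aqp4, Aldoc, Gfap and S100b, were lower, beside 15.5% and 16.1% of all genes. The summed level of the 8 overlapped almost fully (3331 to 4986 CPM with PBS, 3339 to 5038 with HsTX1[R14A]). The sum weighs abundant markers most, and single log2 fold changes ran from -0.72 (S100b) to 0.32 (Slc1a2, not called). A ratio to this sum is therefore not a level per astrocyte. The log2 ratio of Grm3 to these summed markers was -6.64 ± 0.15 (SD, n = 12) with PBS and -6.63 ± 0.26 (SD, n = 9) with HsTX1[R14A], a sex-adjusted difference of -0.0051 (exact permutation test within sex, two-sided, p = 0.954, adjusted over 3 ratios p = 0.954).

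Grm4, a group III receptor that dampens release at cerebellar and striatal terminals, had the widest range of the 6 genes. It went from 4.54 CPM (mouse 103) through a median of 22.4 to 41.9 (mouse 84) with PBS, and from 10.6 (mouse 93) through 38.1 to 82.7 (mouse 74) with HsTX1[R14A]. The HsTX1[R14A] females were at 35.1, 38.1 and 54.5 CPM, all above the PBS median, as were 7 of the 9 mice in all. The log2 fold change was 1.02 ± 0.36 (SE; edgeR adjusted p = 0.0388).

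The highest Grm4 value belonged to mouse 74, the library with the most Gabra6, Cbln3 and Fat2. The next highest were in HsTX1[R14A] mice 88 (58.1 CPM) and 98 (54.5 CPM), with Gabra6 at 0.107 and 0 CPM. Cdhr1, from the list of olfactory bulb output neuron markers, was at 52.2 and 60.3 CPM in mice 88 and 98. It was at 35.6 CPM in PBS mouse 105, which held 39.9 CPM of Grm4. In HsTX1[R14A] mouse 81 (Grm4 at 51.1 CPM) and PBS mouse 84 (41.9 CPM), Cdhr1 was at 6.64 and 7.40 CPM. PBS mouse 73, with the most Gabra6 of the PBS mice (15 CPM), held 15 CPM of Grm4. Whether Grm4 went with these markers from mouse to mouse was not tested. Without mouse 74 the log2 fold change of Grm4 was 0.82 (edgeR adjusted p = 0.0810), the smallest with any 1 mouse left out. Its call was also lost without PBS mice 73 (adjusted p = 0.0554), 101 (0.0658), 90 (0.0741) and 91 (0.0568) and without HsTX1[R14A] mice 98 (0.0705), 72 (0.0510), 88 (0.0673) and 81 (0.0643). The log2 ratio of Grm4 to the summed cerebellar granule cell markers was -3.26 ± 0.99 (SD, n = 12) with PBS and -2.47 ± 0.77 (SD, n = 9) with HsTX1[R14A], and its sex-adjusted difference of 0.84 did not pass (exact permutation test within sex, two-sided, p = 0.0471, adjusted over 3 ratios p = 0.141). Of the 8 markers in that list, 1 (Etv1, log2 fold change 0.27) was called higher and none lower, beside 15.5% and 16.1% of all genes. The list's median log2 fold change was 0.88, and the largest values did not pass: 3.8 ± 1.9 (SE) for Gabra6, 3.5 ± 1.7 for Cbln3, 3.2 ± 1.3 for Fat2 and 1.03 ± 0.45 for Cbln1 (edgeR adjusted p = 0.120, 0.103, 0.0677 and 0.0773). The summed level of the 8 markers ran from 120 to 284 CPM with PBS and from 125 to 763 with HsTX1[R14A]. None of the 8 was at 0 in every mouse. Gabra6 and Fat2 were under 1 CPM in 16 of 21 mice and Cbln3 in 12. In most mice the sum therefore came from Cbln1, Neurod1, Zic1, Zic2 and Etv1, and the ratio is not a level per granule cell.

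With the 5 mice with Gabra6 at 2 CPM or more left out (PBS 73 and 85, HsTX1[R14A] 71, 74 and 93; a choice made after the values were seen), the log2 fold changes were 0.86 for Grm2, 0.97 for Grm4, 0.31 for Grm7 and 0.39 for Grm8. None of the 4 passed in these 10 PBS and 6 HsTX1[R14A] mice, with edgeR adjusted p of 0.0851, 0.0772, 0.0522 and 0.0522. Across all genes no call was made there, and 6621 genes had an unadjusted p under 0.05. Each of the 4 log2 fold changes lay within 1 SE of its value in all mice.

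Grm7, the receptor of the active zone, ran from 31.5 CPM (mouse 90) through a median of 40.3 to 48.8 (mouse 104) with PBS and from 39.6 (mouse 93) through 50.9 to 55.4 (mouse 98) with HsTX1[R14A]. The 3 HsTX1[R14A] females were close together at 52.8, 53.1 and 55.4 CPM and above every PBS mouse, and 5 of the 9 treated mice exceeded every PBS mouse. The log2 fold change was 0.26 ± 0.07 (SE; edgeR adjusted p = 0.0195), and with any 1 mouse left out it stayed between 0.24 and 0.29, with an adjusted p of at most 0.0406. It was 0.075 with the length slope as a covariate (edgeR adjusted p = 0.582) and 0.27 within the SAMP8 form (adjusted p = 0.0746), and passed in neither.

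Grm8, a presynaptic group III receptor and the least abundant of the 6 per length, ran from 10.6 CPM (mouse 90) through a median of 13 to 15.8 (mouse 102) with PBS and from 13 (mouse 74) through 15.7 to 18.4 (mouse 98) with HsTX1[R14A]. Of these 9 mice, 8 exceeded the median with PBS, and 6 of the 12 PBS mice were below every HsTX1[R14A] mouse. Its log2 fold change was 0.31 ± 0.08 (SE; edgeR adjusted p = 0.0186), between 0.28 and 0.36 with any 1 mouse left out, with an adjusted p of at most 0.0392. It was 0.16 with the length slope as a covariate (edgeR adjusted p = 0.483) and 0.28 within the SAMP8 form (adjusted p = 0.0702), and passed in neither.

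Grm5, the group I receptor, was steady. It ran from 197 CPM (mouse 82) through a median of 229 to 257 (mouse 103) with PBS and from 193 (mouse 74) through 224 to 272 (mouse 72) with HsTX1[R14A], with a log2 fold change of -0.0062 ± 0.062 (SE; edgeR adjusted p = 0.945). Its log2 ratio to the summed markers of forebrain excitatory neurons differed by -0.29 between the groups (exact permutation test within sex, two-sided, p = 0.191, adjusted over 3 ratios p = 0.286). None of these 8 markers was called, beside 31.6% of all genes. Their summed level ran from 1486 to 5033 CPM with PBS and from 3335 to 6372 with HsTX1[R14A].

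Receptor levels also went with the length slope of the library, steeply for Grm2 and Grm4. In a fit with sex, treatment and slope, log2 CPM was higher per 0.1 of slope by 0.60 ± 0.088 (SE) for Grm4 and 0.52 ± 0.068 for Grm2, against a median of 0.0052 over all genes tested. The values were 0.11 ± 0.037 for Grm3, 0.099 ± 0.016 for Grm7, 0.078 ± 0.026 for Grm8 and -0.030 ± 0.020 for Grm5. The longest transcripts measure 3049 bases for Grm3, 4210 for Grm7, 4607 for Grm4, 4711 for Grm2, 4799 for Grm8 and 8047 for Grm5, and the median coding transcripts 3049, 1772.5, 3417, 2181, 2830 and 4500 bases. The part of transcript length in these slopes was not tested. PBS mice 103 and 90, with the lowest slopes, held the lowest and second lowest Grm2 values.

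With the slope as a covariate, the treatment log2 fold change turned to -0.14 ± 0.20 for Grm2 and -0.075 ± 0.26 for Grm4 and shrank to 0.075 ± 0.052 for Grm7 and 0.16 ± 0.08 for Grm8 (edgeR adjusted p = 0.811, 0.936, 0.582 and 0.483). In that fit 0 genes of the whole table were called by edgeR, with 1865 at an unadjusted p under 0.05. Without PBS mice 103 and 90 (a choice made after the values were seen), Grm7 (0.22, adjusted p = 0.0337) and Grm8 (0.28, adjusted p = 0.0334) kept their calls and Grm2 (0.67, adjusted p = 0.0621) and Grm4 (0.85, adjusted p = 0.0667) did not.

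**Figure D3:**
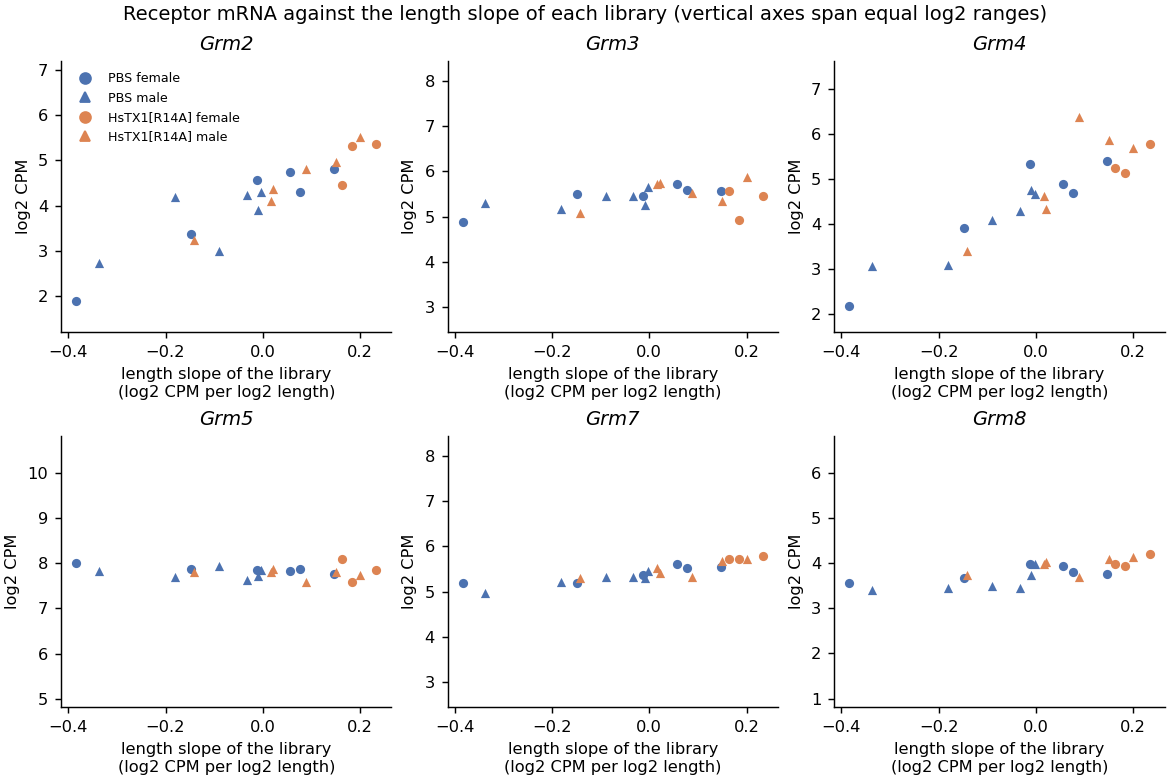
log2 CPM of each receptor gene against the length slope of the library (log2 CPM per log2 length), 1 point per mouse; the vertical axes span equal log2 ranges. Grm2 and Grm4 climb steeply from mouse 103 at a slope of -0.384 to the HsTX1[R14A] mice at the right, Grm7 and Grm8 climb gently, and Grm5 is flat.

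The differences were also computed by name form. Within the SAMP8 form, the log2 fold changes were 0.81 for Grm2, 1.19 for Grm4, 0.27 for Grm7 and 0.28 for Grm8, and within the SAMP form 0.55, 0.55, 0.13 and 0.15. None passed within either form (lowest adjusted p of the 4 genes 0.0702 and 0.855, edgeR), and no gene of the table did, with 5797 and 532 genes at an unadjusted p under 0.05. With name form as a covariate in all mice, Grm7 (0.23, adjusted p = 0.0475) and Grm8 (0.24, adjusted p = 0.0429) passed, and Grm2 (0.73, adjusted p = 0.0877) and Grm4 (1.01, adjusted p = 0.0657) did not.

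**Figure D4:**
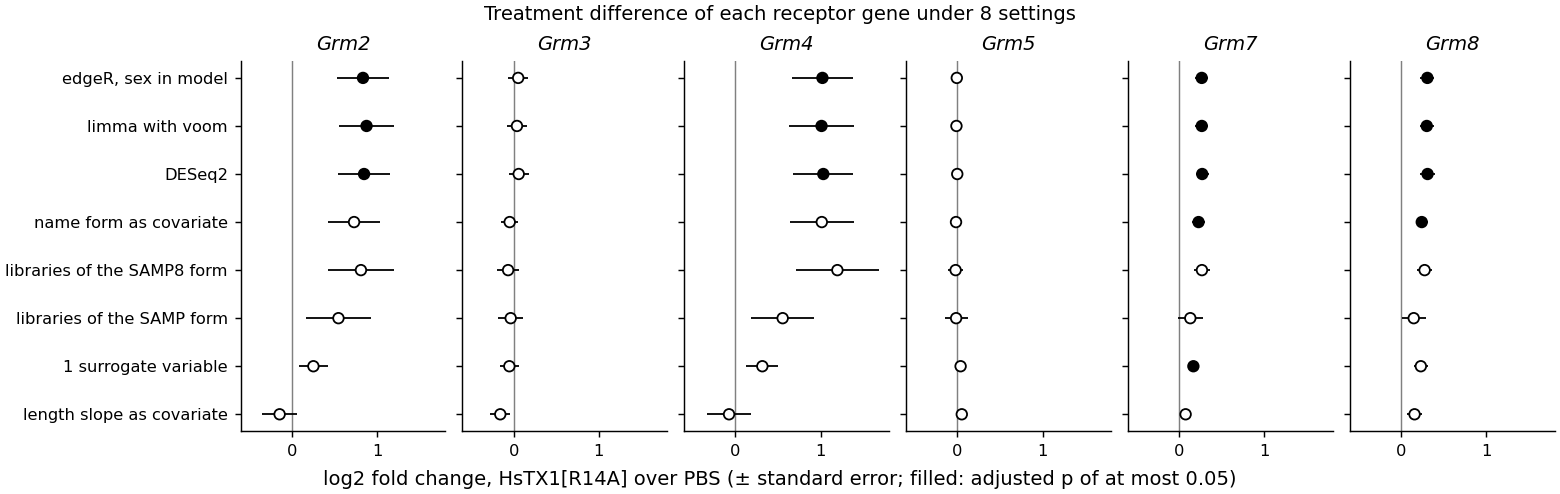
Treatment difference (log2, HsTX1[R14A] over PBS) of each receptor gene (± standard error) under the edgeR fit with sex and the alternative tests, covariates and library subsets; filled points have an adjusted p of at most 0.05. Grm2 and Grm4 go from 0.84 and 1.02 to -0.14 and -0.075 with the length slope as a covariate, and Grm5 stays near 0.

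No sex difference of the receptors passed adjustment. Male over female, with treatment in the model, the log2 fold changes were -0.41 ± 0.30 (SE) for Grm2, 0.04 ± 0.12 for Grm3, -0.36 ± 0.36 for Grm4, -0.09 ± 0.06 for Grm5, -0.19 ± 0.07 for Grm7 and -0.15 ± 0.08 for Grm8. None of the 6 was called (edgeR, lowest adjusted p = 0.446, Grm7; 0.0552% of all genes were called). Only Grm7 had an unadjusted p under 0.05 (0.0196), also by limma/voom (0.0183), and by both tools 0 of the 6 passed after adjustment.

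The treatment difference was not shown to depend on sex for any receptor. Grm4 differed by 0.70 ± 0.51 (SE) in females and 1.23 ± 0.45 in males, Grm2 by 0.86 ± 0.49 and 0.82 ± 0.35, Grm7 by 0.33 ± 0.12 and 0.23 ± 0.10, and Grm8 by 0.25 ± 0.12 and 0.35 ± 0.12. Grm3 was at -0.14 ± 0.19 in females and 0.18 ± 0.13 in males, and its interaction of 0.32 ± 0.23 was not called. Across the table the interaction was called in 0.0% of genes (edgeR), with 270 genes at an unadjusted p under 0.05, none of them a receptor gene, and limma/voom called 0 with 250. With 3 HsTX1[R14A] females, the errors of these differences were as large as 0.75 (Grm4).

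Partners of the receptors were taken from 4 lists of 52 genes in all, and their differences are given as log2 fold changes ± SE. The shares of all genes called, 15.5% higher and 16.1% lower, stand beside each count. For group I coupling (Gq, phospholipase C, Homer and Shank scaffolds), 3 of 16 genes rose and none fell. Ncdn, neurochondrin, which binds Grm5, was at 666 ± 276 CPM (SD, n = 12) with PBS and 1028 ± 264 (SD, n = 9) with HsTX1[R14A], a log2 fold change of 0.68 ± 0.23 (SE; edgeR adjusted p = 0.0321). Shank2, a postsynaptic scaffold, differed by 0.76 ± 0.26 (adjusted p = 0.0333).

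For group II and III coupling (Gi/o subunits, presynaptic scaffolds, GIRK channels), 5 of 16 rose and none fell, against 15.5% and 16.1% of all genes. Elfn1, a postsynaptic adhesion protein that binds Grm7 across the synapse, was at 24.9 ± 5.82 CPM with PBS and 35.3 ± 9.32 with HsTX1[R14A] (log2 fold change 0.56 ± 0.14, SE; edgeR adjusted p = 0.0163). Grip1, a PDZ scaffold, differed by 0.25 ± 0.08 (adjusted p = 0.0223) and Kcnj6, a GIRK channel subunit, by 0.82 ± 0.26 (adjusted p = 0.0263). The other 2, named after their values were seen, were Elfn2 (0.78, adjusted p = 0.0298) and Gnao1, the Go alpha subunit (0.38, adjusted p = 0.0343).

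Among 12 genes of desensitization and turnover, 1 rose and 2 fell, against 15.5% and 16.1% of all genes. Nsf, the ATPase of membrane fusion and receptor recycling, rose by 0.48 ± 0.12 on the log2 scale (edgeR adjusted p = 0.0163). Siah1a, a ubiquitin ligase of group I receptors, fell by 0.24 ± 0.08 on the log2 scale (edgeR adjusted p = 0.0347). Of 8 genes of translation downstream of group I, 1 rose and none fell, beside the same shares of all genes. Mtor rose by 0.64 ± 0.18 (edgeR adjusted p = 0.0195), while Fmr1 (-0.15, adjusted p = 0.0822) and Eef2k (0.26, adjusted p = 0.107) did not pass.

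Over the 4 lists 10 genes were called higher and 2 lower of 52, beside the 15.5% higher and 16.1% lower of all genes, and the median log2 fold change was 0.13. Both counts went to 0 with the length slope as a covariate, in the SAMP8 form alone and without the 5 mice with Gabra6. No gene of the whole table was called in any of these fits, so the zeros are not particular to the lists.

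**Figure D5:**
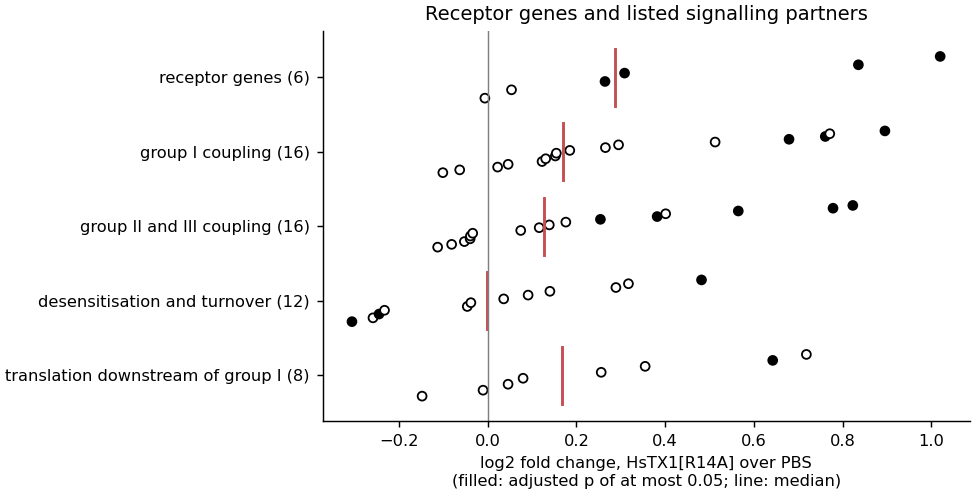
Treatment difference (log2, HsTX1[R14A] over PBS) of the receptor genes and the 4 lists of signaling partners, 1 point per gene, filled where the adjusted p was at most 0.05, with a line at each list's median. The receptor genes have the highest median, 0.29, and desensitization and turnover genes lie on both sides of 0.

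Markers of other cell types were counted in the same way, beside 15.5% of all genes called higher and 16.1% lower. Of 6 oligodendrocyte markers 3 were lower, of 6 microglia markers 1 was lower, and of 4 endothelial markers 1 was higher. Summed oligodendrocyte markers ran from 4277 to 6608 CPM with PBS and from 3243 to 4783 with HsTX1[R14A], summed microglia markers from 358 to 523 and from 305 to 457, and summed endothelial markers from 30.4 to 74.8 and from 39.6 to 84.6. No marker of striatal projection neurons (8 tested), olfactory bulb output neurons (3), choroid plexus (4), pituitary and hypothalamus (7) or red blood cells (4) was called. Their summed levels nevertheless differed widely between mice. With PBS and with HsTX1[R14A], olfactory bulb markers ran from 4.76 to 75.4 and from 10.4 to 105 CPM (median log2 fold change 0.75). Choroid plexus markers ran from 66.8 to 1113 and from 56.4 to 821 CPM. Pituitary and hypothalamus markers ran from 3.04 to 331 and from 2.28 to 165 CPM, and striatal markers from 884 to 1942 and from 473 to 1970 CPM. The part of these markers in the receptor differences was not tested.

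The genes whose levels followed each receptor most closely from mouse to mouse were found by Pearson's r of log2 CPM over the 21 mice after sex and treatment were removed, among 13302 genes. Since the mice share their libraries and their length slopes, these values are given as a description. Grm2 was closest to Eif4g3 (r = 0.969), Scn8a (0.967), a sodium channel, and Hapln4 (0.959), a protein of perineuronal nets. Grm4 was closest to Zbtb40 (0.956), Rnf123 (0.954) and Ppargc1b (0.954). For Grm7 the nearest genes were Astn1 (0.933), Magi1 (0.923) and Ptprn2 (0.916), and for Grm8 Scyl2 (0.862), Aldh18a1 (0.83) and Eno2 (0.826). Grm5 was closest to Mme, the peptidase neprilysin (0.865), Dgkb (0.837) and Rcn1 (0.824), and Grm3 to Cacna2d3 (0.855), Lrrk2 (0.849) and Itpr1 (0.838).

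With the slope removed as well, Eif4g3 (0.837) and Scn8a (0.824) were still the nearest to Grm2, and Dgkb (0.855) and Mme (0.845) the nearest to Grm5. For Grm3 and Grm7, none of the 3 nearest genes was shared with the list before. Among the receptors themselves, Grm2 and Grm4 had the highest r (0.81), followed by Grm2 and Grm7 (0.73) and Grm7 and Grm8 (0.67). With the slope removed these became 0.10, -0.15 and 0.41. Grm5 went against Grm2 in both cases (-0.56 and -0.58).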

How the data were processed

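RNA of 21 SAMP8 brains was sequenced by the authors, 1 library per mouse, with RNA integrity measured beforehand. The labels and the study's methods name different library kits. The authors aligned reads to GRCm38 with STAR and quantified genes with Salmon (nf-core/rnaseq 3.2). The deposited values used here are estimated counts, not normalized, for 16318 genes. Before testing they were rounded (90.496% differed from an integer by no more than 0.01). The filter behind the deposited gene list is not stated. The table also holds the authors' fold changes, p-values and FDR, which were not used, and 53 per-sample columns (37 of CPM, 16 of counts of other libraries) that were not used. No 2 libraries of a group agreed within sampling noise (48 pairs).

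Mice were grouped by treatment and sex from the labels. Counts were scaled by TMM, filtered with filterByExpr over the 4 groups and tested with edgeR 4.0.16 in R 4.3.3 (glmQLFit, glmQLFTest, sex and treatment as terms), and 16303 genes were adjusted together at a threshold of 0.05. CPM are TMM-scaled. Residual correlations used log2 CPM with a prior count of 2. Lengths and positions came from GENCODE for GRCm38. The length slope used the longest transcript of 99.5% of tested genes. Ratios to markers were tested over all 77616 labelings within sex. The alternatives were limma 3.58.1 with voom, DESeq2 1.42.0, RLE scaling, 2 filters, covariates, sva 3.50.0, subsets and each mouse left out. Only the edgeR and limma/voom treatment fits were tested on simulated counts. Those counts held no difference in length slope or name form, so they cannot show how the calls hold where libraries differ in these.

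The 6 genes and all lists were chosen with earlier results of these data known. The text names the 6 genes, the 3 members of each signaling list with the smallest p and any member called against most of its list, and the 3 genes most like each receptor, and says where another was added. Genes that this rule selects but that are not named are not reported here. How far depth and the spread between mice each set the precision was not tested. Protein sequences were not used here.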

Additional observations from a re-analysis of the deposited data

Results flagged for a closer look

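Of 30 sets of 6 mice (receptor levels, ratios to markers and length slopes by group) examined for a sample far from the others, 1 stood out, and chance alone gives about 1 in 20. Grm3 in PBS female mouse 103 was at 29.6 CPM, while the other 5 PBS females lay between 44.2 and 52.7 CPM (gap over range 0.634, n = 6). The same mouse had the lowest Grm2 and Grm4 values, the highest Grm5 value of the PBS mice and the lowest length slope of the 21 libraries, and the part of the slope in this value was not tested.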

How the results depend on the processing

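The calls of Grm2, Grm4, Grm7 and Grm8 held with limma/voom, DESeq2, RLE scaling and both other filters (all genes called: 5144 by edgeR, 5201 by limma/voom, 6145 by DESeq2). Of the 6 genes, 2 were called without a sex term and 2 with the name form as a covariate (all genes 2984 and 1999). With 1 surrogate variable 1 was called (Grm7, edgeR adjusted p = 0.0493), beside 2110 of all genes. In the SAMP8-form mice alone, in the SAMP-form mice alone and with the length slope as a covariate 0 of the 6 were called. In each of these fits 0 of all genes were called. With the length slope, Grm2 (-0.14 ± 0.20, SE) and Grm4 (-0.075 ± 0.26) changed sign but lay within 1 SE of 0. Added after seeing the data, leaving out the 5 mice with Gabra6 gave 0 and leaving out the 2 mice of lowest slope gave 2 (all genes 0 and 2887). With 1 mouse left out the count ran from 2 to 4, and over all genes from 2289 (without PBS mouse 90) to 6614 (without HsTX1[R14A] mouse 93). Signaling genes called higher (10) ran from 5 to 13 and lower (2) from 0 to 3 with 1 mouse left out. Both were 0 in the SAMP8-form mice alone, with the length slope and without the 5 mice, where no gene of the table was called. The lower count was 0 without the 2 mice, beside 1200 of all genes called lower there. In the SAMP8-form mice alone, in the SAMP-form mice alone and with mice left out, fewer samples entered. The cause of the other changes was not tested. Ratios to markers passed under none of their alternatives. By the paper's methods, treatment was randomized among the mice of each cage. The sample labels used here give no cage, so no analysis by cage was possible.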
